A study of Betula luminifera with 4 samples.

Results

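Roots of the birch Betula luminifera that received no phosphate (LP) were compared with phosphate-fed control roots (CK) in 1 poly(A) RNA library each. Members were the assembled genes with a plant protein match, meaning a best match in walnut (Juglans) or a Swiss-Prot match in Arabidopsis thaliana. They numbered 26828 of the 76899 assembled genes, of which 21925 matched Juglans, 15417 matched Arabidopsis and 10514 matched both. The results rest on the 16706 members whose contig was 500 bp or longer. Of these, 14808 reached 1 TPM (a length-adjusted share of the library's transcripts) in at least one root library on the scale described below and are called tested, and 1898 did not.

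All plants were of 1 clone, G49#, raised in tissue culture for 2 months and then grown in sand. They received complete medium for 2 weeks and deionized water for the next 2 weeks, so the controls too had passed through a period without phosphate. The 54 plants were then watered daily with 20 mL of medium that held 1.25 mM KH2PO4 (CK) or none of it, with the potassium replaced as K2SO4 (LP). Root RNA made the root libraries, and stem and leaf RNA in equal parts made the 2 shoot libraries. How many plants went into a library, and for how long they were treated, the labels do not say.

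Phosphate is taken up from soil by PHT1 importers at the root surface, loaded into the xylem by PHO1 and stored in the vacuole by SPX-domain carriers. In Arabidopsis and rice, scarcity releases the PHR transcription factors from SPX proteins, and they switch on importers, secreted acid phosphatases and the synthesis of galactolipids and sulfolipids in place of phospholipids. Phosphate-starved roots are also known for shifts in root hairs, in organic acid release and in glycolytic steps that spare ATP.

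With 1 library per group no difference below has a replicate check, no p-value can be given, and a difference between the libraries cannot be told apart from one between the media. LP values were divided by 0.641, the median LP to CK ratio over 12315 members of at least 1 TPM in both libraries. The scaled log2 ratio is log2((scaled LP TPM + 1)/(CK TPM + 1)), which understates differences of genes near 0. Each fold of a scaled level given below is this ratio taken out of the log. It includes the added 1 TPM and is smaller than the plain quotient of the levels, most of all where 1 library is near 0. A gene is called higher or lower where this ratio is at least 1 or at most -1. TPM are printed as deposited, so a gene with equal scaled levels shows a lower printed value in LP. In whole roots, fewer cells of a type and less RNA per cell cannot be told apart. Several contigs may carry the same protein name and share reads, so contigs are told apart by length, and names come from the authors' deposited protein matches to other plants, not from tests in birch.

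The libraries differed widely. Of the tested members, 5296 were called higher in LP roots, a background of 35.8%, and 3703 were called lower, a background of 25.0%. Together 60.8% passed the 2-fold size rule, and the median scaled log2 ratio was 0.28. Left at their deposited TPM, the same comparison gave 3883 higher and 5255 lower, so that 42.5% of calls were higher against 58.9% after scaling. Scaling on members of 10 TPM or more gave 4463 and 4536. In shoots the calls came to 15.1% higher and 14.1% lower. Over members above 0 in both libraries of a tissue, the ratio had an SD across genes of 1.78 in roots and 1.05 in shoots.

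**Figure D1:**
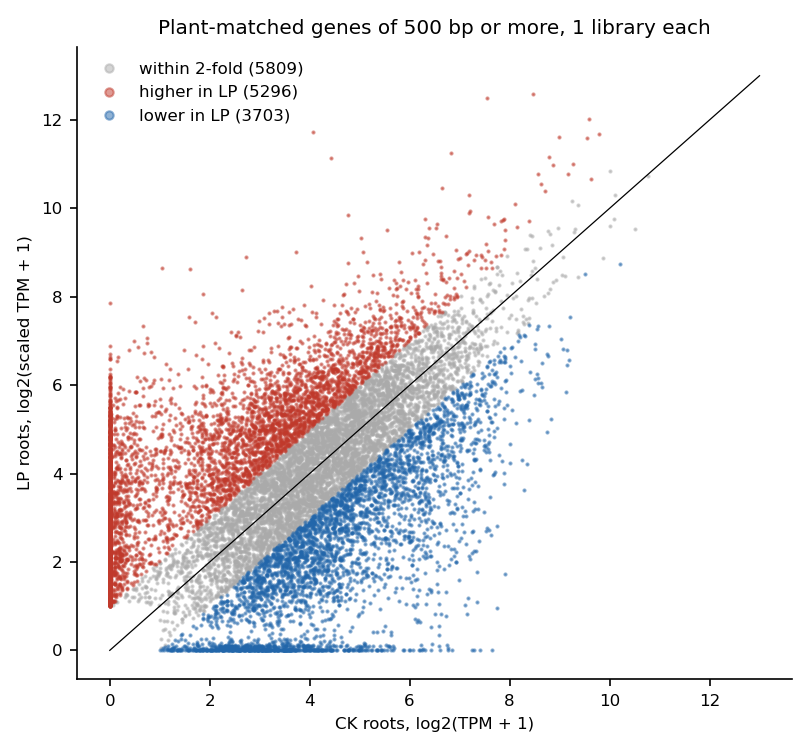
Each point is 1 tested member of 500 bp or more, with log2(TPM + 1) in CK roots on the horizontal axis and log2(scaled TPM + 1) in LP roots on the vertical axis; the line marks equal levels. The 5296 members called higher are red and the 3703 called lower are blue, and members listed at 0 line both axes.

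Members made up 52.2% of all TPM in CK roots and 40.5% in LP roots, while genes without any protein match made up 29.0% and 43.3%. Genes matched to yeast and to no plant held 0.789% of TPM in CK roots and 2.07% in LP roots. Their part in the results was not tested. The tissue label was checked on root markers. Of 6 contigs named for root proteins, 4 were higher in CK roots than in CK shoots and 3 were higher in LP roots than in LP shoots. They summed to 260.6 TPM in roots on CK and 62.55 TPM on LP. The endodermal Casparian strip membrane protein 1 had 94.35 TPM in the CK and 20.02 TPM in the LP library, against 0 and 0.08 TPM in shoots. The nitrate importer NRT2.1 had 88.8 and 33.2 TPM in the roots and at most 0.18 TPM in the shoots. SHORT-ROOT, a regulator of root layers, had 48.3 TPM in CK roots but 3.54 TPM in LP roots, below the 15.5 TPM of LP shoots. For SCARECROW, a regulator of the endodermis, 2 of 3 contigs were at most 1.09 TPM in roots and at least 6.92 TPM in shoots.

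Most contigs of the PHT1 phosphate importers were lower in LP roots, while the xylem loader PHO1 was at nearly equal scaled levels. Of 24 tested members for phosphate transport, 7 were called higher and 7 lower (29.2% each, against backgrounds of 35.8% and 25.0%). Their median was -0.46 against 0.28 for all members. None of the 6 contigs named for PHT1 importers was called higher and 4 were called lower. By their deposited contig names, PHT1-4, PHT1-1 and the longer PHT1-5 (759 bp) belong to the same assembly cluster and may share reads. PHT1-4, a high-affinity importer, had 116 TPM in CK and 12.9 TPM in LP, a 5.51-fold lower scaled level. PHT1-3 had 72.8 and 18.97 TPM, with a log2 ratio of -1.27. PHT1-1 had 27.9 and 2.98 TPM, with a ratio of -2.36. CK was thus the high library for these importers. The longer of 2 PHT1-5 contigs (759 bp) had 54.7 TPM in CK and 12.02 TPM in LP, a ratio of -1.50, and the shorter (549 bp) had a ratio of -0.79, short of the size rule. PHT1-9 was low in both libraries, with 4.26 TPM in CK and a ratio of -0.80. The mitochondrial carrier MPT3 (1261 bp) had 103 TPM in CK and 24.5 TPM in LP, a ratio of -1.40, while a second MPT3 contig (1195 bp) had a ratio of -0.08. The plastid carrier PHT2-1 had a ratio of -1.46.

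The xylem loader PHO1 was the most abundant of these genes and lay at nearly equal scaled levels. Its main contig (1526 bp) had 155 TPM in CK and 95.7 TPM in LP, a ratio of -0.06. A second PHO1 contig (1370 bp) had 37.9 and 13.9 TPM and a ratio of -0.78. A relative of PHO1, PHO1-H10 (2053 bp), differed in the opposite direction from the importers, with 4.43 TPM in CK and 35.4 TPM in LP, a 10.3-fold higher scaled level. A short PHO1-H10 contig (502 bp) was listed at 0 in CK and had 12.9 TPM in LP. Over the 7 contigs of the PHO1 family, 2 were called higher and none lower. A 3102 bp contig had 4.22 TPM in CK and 67.7 TPM in LP, a ratio of 4.35. Its Swiss-Prot match is the yeast importer PHO84 and its walnut match is an uncharacterized protein, so its function in birch is uncertain.

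The SPX list was small, and part of it also counts as phosphate transport. Its only higher calls were both contigs named for At4g22990, one of the SPX-domain carriers that move phosphate into the vacuole. The first (2629 bp) had 16.0 TPM in CK and 76.6 TPM in LP, a 7.07-fold higher scaled level. The second (2661 bp) had 2.70 and 19.5 TPM and a ratio of 3.09. Both contigs are above 2.5 kb in length and were low in CK. SPX2, an inhibitor of PHR factors in Arabidopsis, had 13.4 TPM in CK and 17.3 TPM in LP, and its ratio of 0.95 stopped just short of the size rule. SPX4, which holds PHR factors outside the nucleus in rice, had 18.4 and 9.24 TPM and a ratio of -0.34. The SPX median was 1.89 over 4 members, whose ratios ran from -0.34 to 3.09. Of these, 2 were called higher and none lower, against backgrounds of 35.8% and 25.0%.

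Regulators of the phosphate response showed no common direction. Of 30, 10 were called higher (33.3%) and 6 lower (20.0%), against backgrounds of 35.8% and 25.0%. Their median was 0.32, near that of all members. PHL1, a relative of PHR1, was the most abundant, with 97.0 TPM in CK and 74.2 TPM in LP and a ratio of 0.25. PHR2 (2280 bp), the central activator in rice, had 62.0 and 18.6 TPM and a ratio of -1.07. The 2 contigs of PHL2 were called in opposite directions, with a ratio of 1.69 for the 1297 bp contig and -1.72 for the 1418 bp contig. A 789 bp contig matched to walnut PHR1-LIKE 1 had 1.04 TPM in CK and 44.6 TPM in LP, a ratio of 5.11. PHO2, listed as UBC24, the ubiquitin enzyme that removes PHO1 and PHT1 proteins, lay close to equality in its 2 long contigs, with ratios of -0.11 and 0.38. WRKY75, an activator of starvation genes in Arabidopsis, had 9.16 and 20.0 TPM and a ratio of 1.66. All 3 contigs of WRKY6, a repressor of PHO1, were called lower, the most abundant with 39.7 TPM in CK and 11.2 TPM in LP. The SUMO ligase SIZ1 had 4 contigs, 3 of them within the size rule and the fourth (1689 bp) lower, from 61.4 TPM in CK to 3.21 TPM in LP.

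Acid phosphatases and nucleases, which free phosphate from organic compounds, were split. Of 37 tested, 15 were called higher (40.5%) and 12 lower (32.4%), against backgrounds of 35.8% and 25.0%, with a median of 0.35. The 9 of them listed at 0 in CK were all among the 15 and entered only through their LP value. Over the 27 above 0 in both libraries the median was -0.72, against 0.06 for all such members. PAP15 (1962 bp), which acts on phytate in Arabidopsis, had 118 TPM in CK and 4.90 TPM in LP, a 13.8-fold lower scaled level. PAP28, a probable inactive relative, had 93.3 and 0.960 TPM, a 37.8-fold lower scaled level. Both were high in CK and low in LP. A second PAP15 contig (1195 bp), listed at 0 in CK, had 4.29 TPM in LP and a ratio of 2.94. The nuclease BBD2 (2441 bp) had 66.8 TPM in CK and 105 TPM in LP, a ratio of 1.29. PAP9, also named as probably inactive, had 39.98 and 71.1 TPM and a ratio of 1.45, although its walnut match is a transmembrane protein of another family. PAP18 (734 bp) had 87.8 and 68.4 TPM, a ratio of 0.28, and a second PAP18 contig (1102 bp) had -1.07. PAP26, the main intracellular and secreted acid phosphatase of Arabidopsis, had 5 contigs, 4 called higher and 1 within the rule, and the highest LP value among them was 9.02 TPM. PAP17, a classic starvation marker, was near the limit in both libraries, with 1.44 TPM in CK and 0.740 TPM in LP. The S-like ribonuclease RNS2 had 47.1 and 17.5 TPM and a ratio of -0.76. Among the contigs of 1000 bp or more the list median was -0.40, against 0.35 for contigs of 500 bp or more. With a match by both annotations it was -0.73. Medians of all members were 0.23 at 1000 bp or more and 0.19 with a match by both annotations.

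The lipid list lay near the background, and its phospholipases differed in both directions. Of 38 tested members, 14 were called higher (36.8% against 35.8%) and 8 lower (21.1% against 25.0%), with a median of 0.36. From this list 7 contigs for galactolipid and sulfolipid synthases were singled out after their values were seen. Of these, 4 were higher in LP roots, 2 were within the rule and 1 was lower. SQD2, the last enzyme of sulfolipid synthesis, had 12.9 TPM in CK and 29.6 TPM in LP, a 3.39-fold higher scaled level. MGD2, a galactolipid synthase of starved tissue, had 1.60 and 10.9 TPM, a 6.90-fold higher scaled level. DGD2, which makes digalactolipid during starvation, had 13.3 and 17.8 TPM and a ratio of 1.01, at the edge of the rule. Another monogalactolipid synthase contig (2175 bp) was low in both libraries, with 2.35 and 4.13 TPM and a ratio of 1.15. SQD1 and the long DGD1 contig stayed within the rule, with ratios of 0.28 and 0.34. A short DGD1 contig (574 bp) was lower, with 30.9 TPM in CK and 3.68 TPM in LP and a ratio of -2.24. PAH1, a phosphatase that yields the diacylglycerol for these lipids, had 2.49 and 11.1 TPM and a ratio of 2.39.

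Among phospholipases, NPC1 (873 bp) was the most abundant in LP, with 117 TPM in CK and 247 TPM in LP and a ratio of 1.71. A second NPC1 contig (1218 bp) had 38.5 and 66.9 TPM and a ratio of 1.41. NPC2, a relative that cuts phospholipids in the same way, was high in CK instead, with 93.5 TPM against 2.88 TPM, a 17.2-fold lower scaled level. The contig matched to the phospholipase D pldZ had 75.3 and 6 TPM and a ratio of -2.88. Contigs named for the plant phospholipase D zeta, PLDZETA1, are separate from it. They were low in both libraries and had ratios of -0.36 (1434 bp), 1.67 (536 bp) and -2.03 (635 bp). PLDGAMMA1 had 58.5 and 76.7 TPM and a ratio of 1.02. GDPDL3, a cell-wall protein of the glycerophosphodiesterase family and the most abundant member of the list in CK, had 350 TPM in CK and 159 TPM in LP, a ratio of -0.49. GDPDL1 had 201 and 51.1 TPM, a ratio of -1.32.

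**Figure D2:**
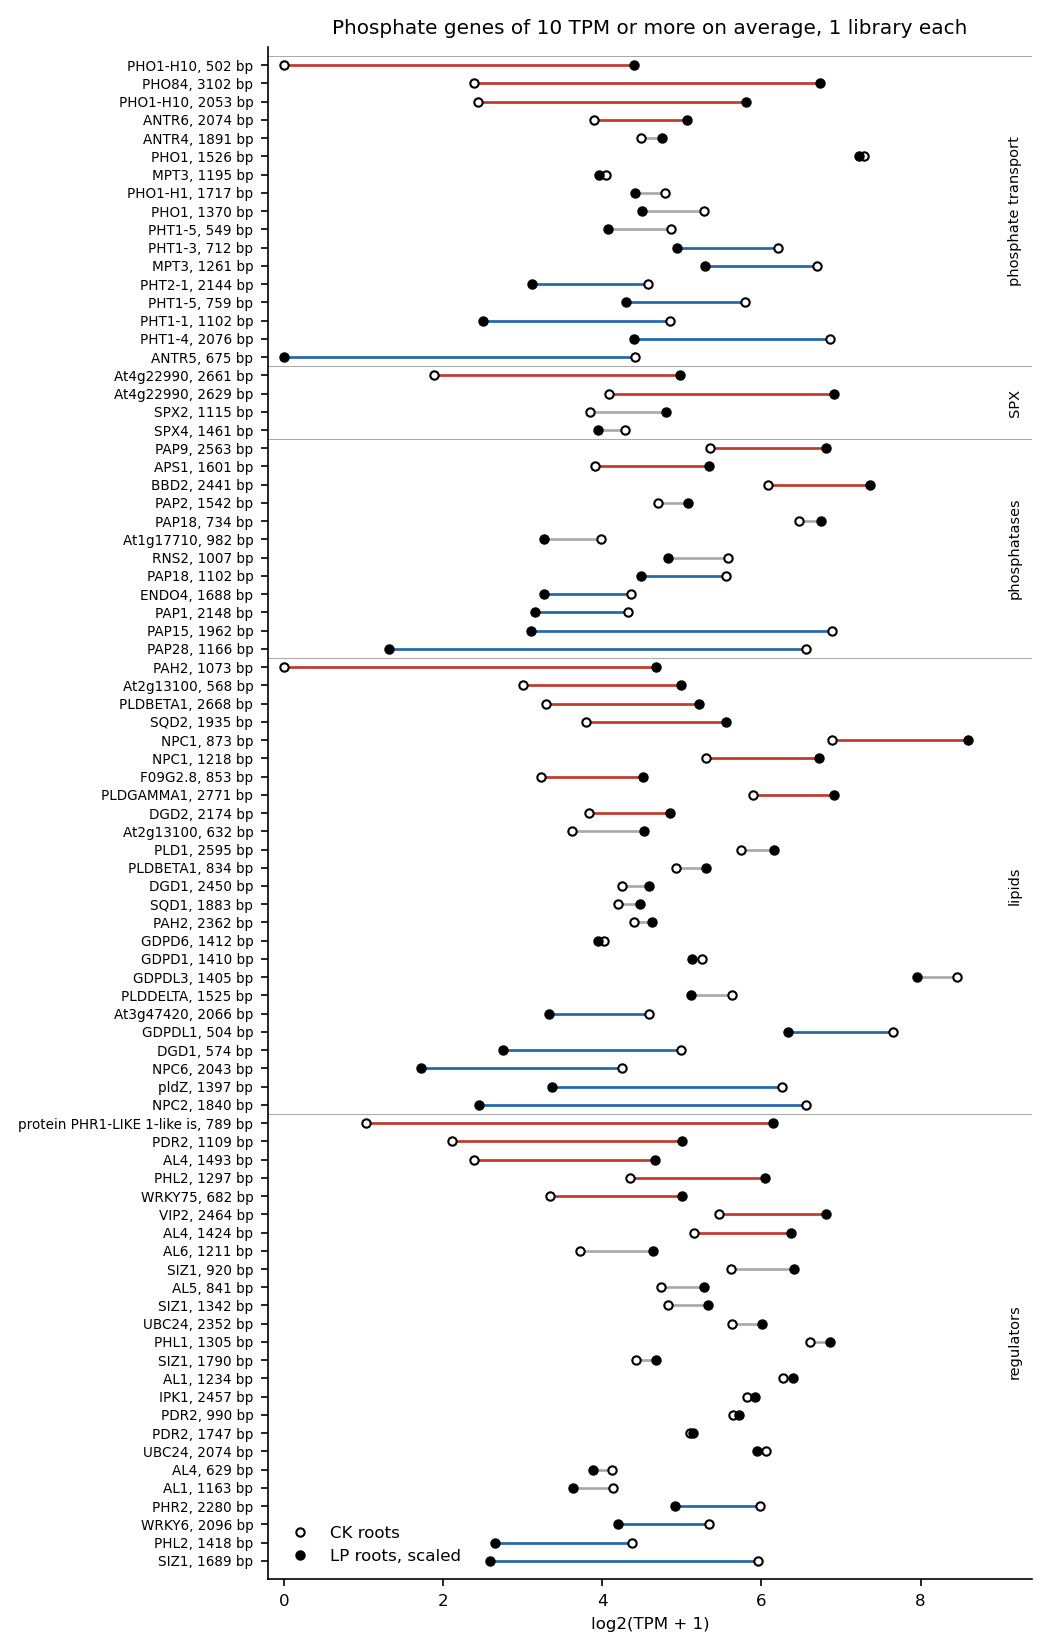
Phosphate genes with a mean of 10 TPM or more, 1 line per contig, with log2(TPM + 1) in CK roots as open points and in LP roots after scaling as filled points; red lines are called higher, blue lines lower, and grey lines lie within the size rule. The PHT1 contigs point to lower levels in LP, and PHO1-H10 and both At4g22990 contigs to higher levels.

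Genes of sugar breakdown and transport held some of the largest differences between abundant genes. The cytosolic invertase CINV2, which splits sucrose, had 26.4 TPM in CK and 590 TPM in LP, a 33.6-fold higher scaled level. INVC, a mitochondrial invertase, had 6.89 and 112 TPM and a ratio of 4.48. INVB, another relative, had 41.3 and 5.55 TPM and a ratio of -2.13. Over 7 contigs of this invertase family 4 were called higher and 2 lower. The sugar transporter SWEET2 had 3.90 and 44.1 TPM, a ratio of 3.83. The sugar list had 11 of 39 called each way, 28.2% against backgrounds of 35.8% higher and 25.0% lower, with a median of -0.06. PFP-BETA, a subunit of the pyrophosphate-dependent phosphofructokinase that bypasses an ATP-using step of glycolysis, had 57.5 TPM in CK and 212 TPM in LP, a ratio of 2.50. Citrate synthase had 60.2 and 12.8 TPM and a ratio of -1.55. Phosphoenolpyruvate carboxylase PPCC had a ratio of 0.37. Over the whole list of organic acid and bypass genes 12 of 43 were called higher (27.9%) and 11 lower (25.6%), with a median of 0.12.

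Several abundant transport genes for nitrate, water, potassium and sulfate were lower in LP roots, while others of the same lists were higher or within the rule, and 1 ferritin contig was higher. NRT3.1, the partner protein of the nitrate importer NRT2.1, had 523 TPM in CK and 84.1 TPM in LP, a ratio of -1.99. The nitrate or peptide carrier NPF4.3 (1158 bp) had 108 and 12.8 TPM and a ratio of -2.38. NRT2.1 itself had a ratio of -0.77, and 2 contigs of NPF7.3, a xylem carrier, had -0.29 (1283 bp) and -1.86 (947 bp). Cytosolic glutamine synthetase GS1-1 had 236 and 73.0 TPM and a ratio of -1.05. Asparagine synthetase AS1 was high in LP, with 48.6 and 118 TPM and a ratio of 1.89. Of 55 nitrogen genes 22 were called higher and 11 lower, with a median of 0.42, but 9 were listed at 0 in CK and entered only through their LP value. Over the 45 above 0 in both libraries the median was -0.25, against 0.06 for all such members. Among contigs of 1000 bp or more it was -0.16, against 0.23 for all members of that length. Of 15 aquaporins 5 were called lower (33.3%) and 2 higher (13.3%), against backgrounds of 25.0% and 35.8%. None of the 7 plasma membrane PIP aquaporins among them was called higher and 4 were called lower. PIP2-7 had 240 TPM in CK and 43.0 TPM in LP, a ratio of -1.82. PIP2-1, the most abundant aquaporin, had 1748 and 1083 TPM, a ratio of -0.05. The potassium channel SKOR, which loads the xylem, had 112 and 13.9 TPM and a ratio of -2.31. The potassium importer POT4 (2042 bp) had 63.0 and 83.8 TPM and a ratio of 1.04. Potassium genes had 13 of 36 higher (36.1%) and 12 lower (33.3%), against backgrounds of 35.8% and 25.0%. The sulfate carrier SULTR2;1 had 69.4 and 9.34 TPM and a ratio of -2.18. APRL5, named for its likeness to a sulfate-reducing enzyme, had 18.9 and 78.5 TPM and a ratio of 2.63. Sulfate genes had 7 of 23 higher (30.4%) and 5 lower (21.7%), against the same backgrounds. Ferritin FER2, the plastid iron store (named ferritin-3 by its walnut match), had 82.8 TPM in CK and 480 TPM in LP, an 8.93-fold higher scaled level. The metal importer Nramp5 had 55.9 and 4.65 TPM and a ratio of -2.79.

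**Figure D3:**
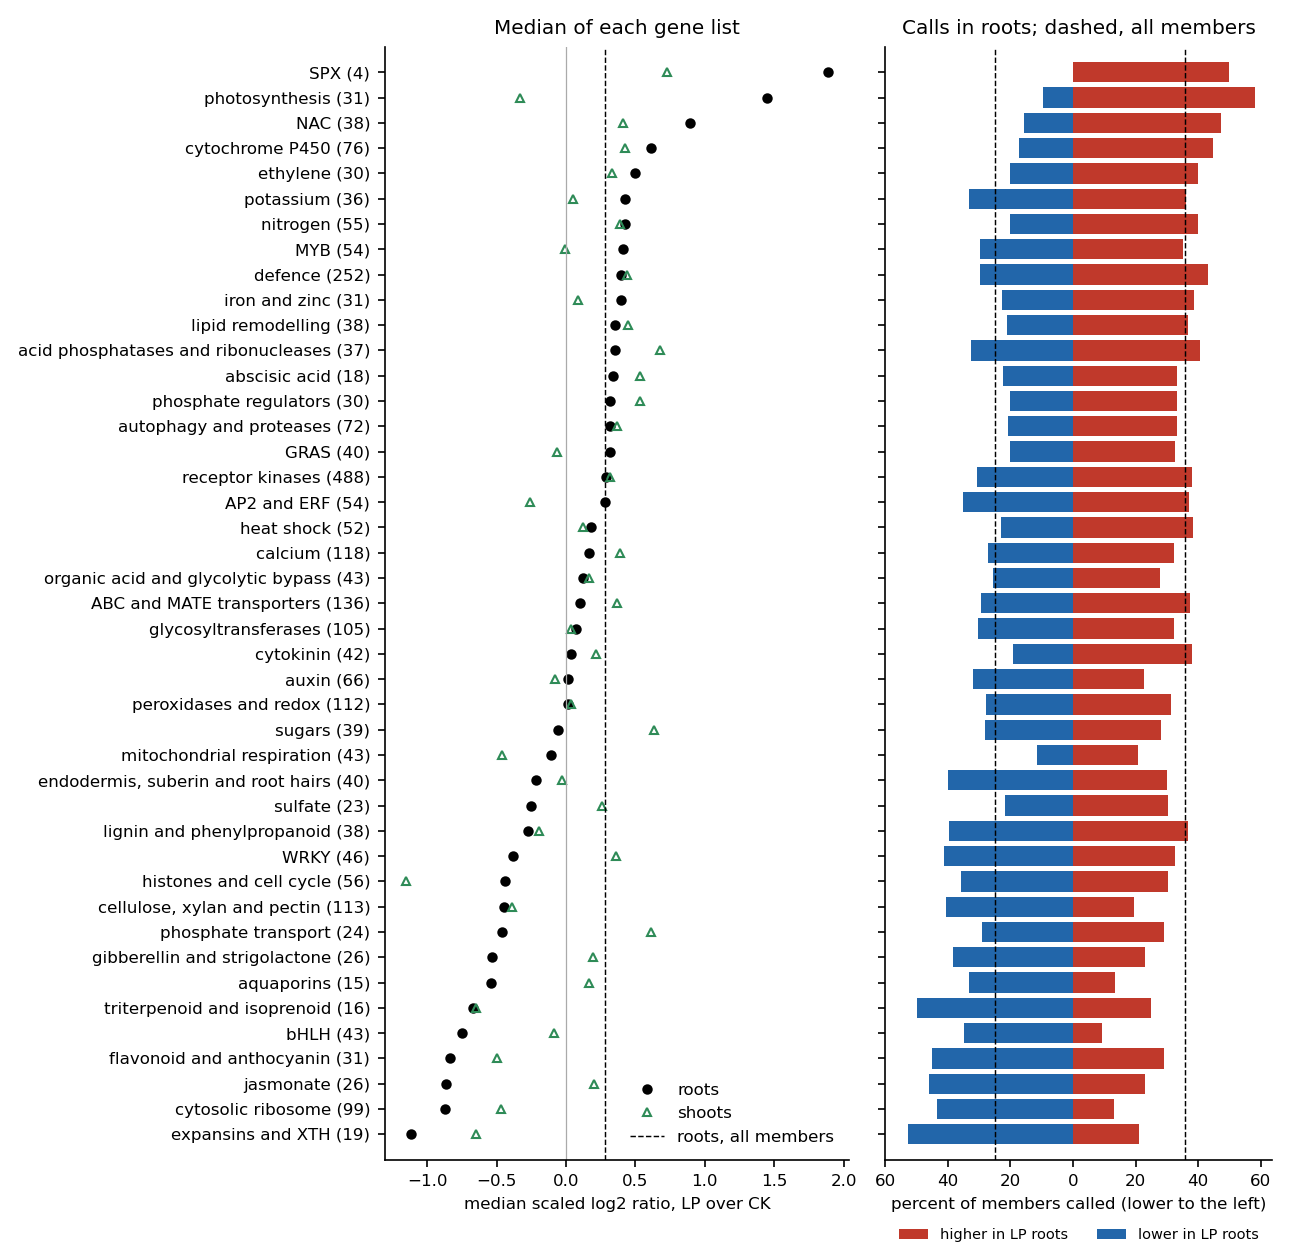
Left, the median scaled log2 ratio of LP over CK for each of 43 gene lists in roots (points) and shoots (triangles), with the number of tested members in brackets and the root median of all members, 0.28, as a dashed line. Right, the percent of root members called higher (red) and lower (blue), with the backgrounds of 35.8% and 25.0% dashed; expansins and XTH have the lowest root median and SPX the highest.

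Genes that loosen or build the cell wall were lower in LP roots more often than the background. Of 19 expansins and xyloglucan enzymes, 10 were called lower (52.6%) and 4 higher, with a median of -1.12. Both contigs of XTH23, which cuts and rejoins xyloglucan, were lower. The first (785 bp) had 296 TPM in CK and 87.2 TPM in LP, a ratio of -1.12. The second (635 bp) had 333 and 23.0 TPM, a ratio of -3.18. EXLB1, an expansin-like protein, stood apart with 26.2 TPM in CK and 276 TPM in LP, a 15.9-fold higher scaled level. Cellulose, xylan and pectin genes had 46 of 113 called lower (40.7%) and 22 higher, with a median of -0.45. GAUT4 (627 bp), a pectin synthase, had 209.8 TPM in CK and 49.7 TPM in LP, a ratio of -1.42, but the longest GAUT4 contig (2052 bp) had a ratio of -0.17 and another (773 bp) was listed at 0 in CK with 45.7 TPM in LP. Of 22 contigs named for such galacturonosyltransferases 10 were lower and 5 higher, against backgrounds of 25.0% and 35.8%. Of the primary wall cellulose synthases, CESA1 had ratios of -1.41 (1452 bp), 0.97 (1182 bp) and 0.57 (1294 bp), and the 3 contigs of CESA3 lay within the rule, between 0.33 and 0.86. CSLD2, a cellulose synthase-like protein of root hairs, had 147 and 22.5 TPM in its most abundant contig, a ratio of -2.03, but 57.8 and 37.0 TPM in one of 4062 bp, equal after scaling. Pectinesterase MPE3 had 178 and 4.94 TPM and a ratio of -4.37.

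Barrier and lignin genes had members at both ends. CASP-like protein 1D1, of the family of Casparian strip scaffolds, had 144 TPM in CK and 806 TPM in LP, an 8.66-fold higher scaled level, whereas Casparian strip membrane protein 1 had a ratio of -1.57. PER72, a peroxidase of lignin formation, had 126 and 34.2 TPM and a ratio of -1.23. Of 40 endodermis, suberin and root hair genes 16 were lower and 12 higher. Of 38 lignin and phenylpropanoid genes 15 were lower (39.5%) and 14 higher (36.8%), against backgrounds of 25.0% and 35.8%. Of 9 laccases, which polymerize lignin, 6 were lower and 2 higher, against the same backgrounds. LAC16 was lower, with 129 TPM in CK and 3.10 TPM in LP. LAC14 was higher, with 28.4 and 109 TPM and a ratio of 2.54. The lignin enzymes CCR1 (698 bp) and HST (2121 bp) had ratios of -1.21 and -1.29.

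Jasmonate genes leaned to lower levels in LP roots. Of 26 tested, 12 were called lower (46.2%) and 6 higher (23.1%), against backgrounds of 25.0% and 35.8%, with a median of -0.87. LOX3.1, a lipoxygenase at the start of the pathway, had 85.2 TPM in CK and 1 TPM in LP, a ratio of -5.07. OPR2 (1185 bp), a 12-oxophytodienoate reductase, had 155 and 14.5 TPM and a ratio of -2.72. LOX3.1 and OPR2 were both high in CK and low in LP. TIFY10A, a repressor of the pathway that jasmonate itself induces in Arabidopsis, had ratios of -1.56 (1976 bp) and -5.13 (1154 bp). Of 7 TIFY contigs 4 were lower and 2 higher. The receptor COI1 had 154 TPM in CK and 133 TPM in LP, a ratio of 0.43. AOS3, named as an allene oxide synthase, was higher, with 11.3 and 33.4 TPM and a ratio of 2.11.

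Other hormone lists held strong differences of single genes in both directions. The contig matched to the strawberry auxin-repressed protein was among the most abundant of all, with 882 TPM in CK and 2102 TPM in LP and a ratio of 1.89. Its walnut match names another protein, so the 2 annotations disagree. IAA26, an auxin-response repressor, had 80.6 and 370 TPM and a ratio of 2.82, and SAUR72 (945 bp), an auxin-induced growth protein, had 32.6 and 332 TPM and a ratio of 3.95. A shorter SAUR72 contig (515 bp) had 57.6 TPM on CK and none on LP. ARF18 (731 bp), an auxin response factor, had 209 and 28.8 TPM and a ratio of -2.19. Over 66 auxin genes 15 were higher (22.7%) and 21 lower (31.8%), against backgrounds of 35.8% and 25.0%. CTR1 (1984 bp), the brake on ethylene signalling, had 197 TPM in CK and 3.30 TPM in LP, a ratio of -5.01, but its best match outside Swiss-Prot is uncharacterized. A longer CTR1 contig (3027 bp), named CTR1 by both matches, had a ratio of -0.42. EBF2 (3084 bp), an F-box protein of ethylene signalling, had 70.8 and 164 TPM and a ratio of 1.84. The abscisic acid receptors PYL8 (676 bp) and PYL4 (728 bp) were called in opposite directions, with ratios of 1.86 and -2.22. GASA1, a gibberellin-regulated peptide, had 24.3 and 169 TPM and a ratio of 3.39. SMXL4, of the family of strigolactone signalling repressors, had 122 and 11.5 TPM and a ratio of -2.70. The cytokinin receptor AHK3 (1293 bp) had 30.5 and 179 TPM and a ratio of 3.15, and the longer AHK3 contig (3544 bp) had a ratio of 1.25.

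Counts in transcription factor families leaned in different directions. bHLH factors had 15 of 43 called lower (34.9%) and 4 higher (9.30%), with a median of -0.75. BHLH130 (1935 bp) had 289 TPM in CK and 89.4 TPM in LP, a ratio of -1.05, and BHLH68 (1502 bp) had 204 and 48.5 TPM, a ratio of -1.42. The most abundant bHLH contig in LP, BHLH145, was an exception, with 121 and 344 TPM and a ratio of 2.14. NAC factors had 18 of 38 called higher (47.4%) and 6 lower, with a median of 0.89, or 0.60 over the 32 above 0 in both libraries. NAC083, a factor of xylem vessel formation in Arabidopsis, had 94.0 TPM in CK and 285 TPM in LP, a ratio of 2.23. The 3 contigs of NAC100 ranged from a ratio of 3.70 (1805 bp) through 0.42 (718 bp) to -4.22 (615 bp). WRKY factors leaned to lower levels with 19 of 46 lower (41.3%) and 15 higher (32.6%), against backgrounds of 25.0% and 35.8%. WRKY41 (1661 bp) had 143 TPM in CK and 0.810 TPM in LP. RAP2-4 (1984 bp), an ethylene-response factor, had 381 and 1121 TPM and a ratio of 2.20. ERF4 (714 bp), a repressor of the same family, had 588 and 119 TPM and a ratio of -1.66. MYB44 was called higher in one contig (1966 bp, ratio 2.74) and lower in another (836 bp, ratio -2.71).

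Ribosomal protein genes were lower in LP roots more often than the background, and 16 of 30 contigs for autophagy proteins were higher. Of 99 cytosolic ribosomal protein genes 43 were called lower (43.4%) and 13 higher (13.1%), while 43 were within the rule, with a median of -0.87. Over the 23 of them with contigs of 1000 bp or more the median was -0.32, against 0.23 for all members of that length. RPL17B (625 bp), the most abundant, had 732 TPM in CK and 234 TPM in LP, at the edge of the size rule. RPL7B, in the more abundant of its contigs, had 295 and 36.9 TPM, a ratio of -2.34. The summed deposited level of the list was 8384 TPM in CK and 3518 TPM in LP. Mitochondrial respiration genes mostly stayed within the rule, with 29 of 43 called neither way and a median of -0.11. Contigs named for autophagy-related (ATG) proteins, which build the vesicles that carry cell contents to the vacuole, numbered 30. Of these, 16 were higher and 4 lower, against backgrounds of 35.8% and 25.0% of all members. ATG8F (734 bp), the vesicle-bound ubiquitin-like protein, had 39.9 TPM in CK and 174 TPM in LP, a ratio of 2.74, and a second ATG8F contig (627 bp) had 116 and 95.3 TPM and a ratio of 0.36. ATG13B, part of the initiating kinase, had 98.2 and 217 TPM and a ratio of 1.77. The ATG contigs were singled out after their values were seen. The wider list of autophagy and vacuolar proteases had 24 of 72 higher and 15 lower, near the background.

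**Figure D4:**
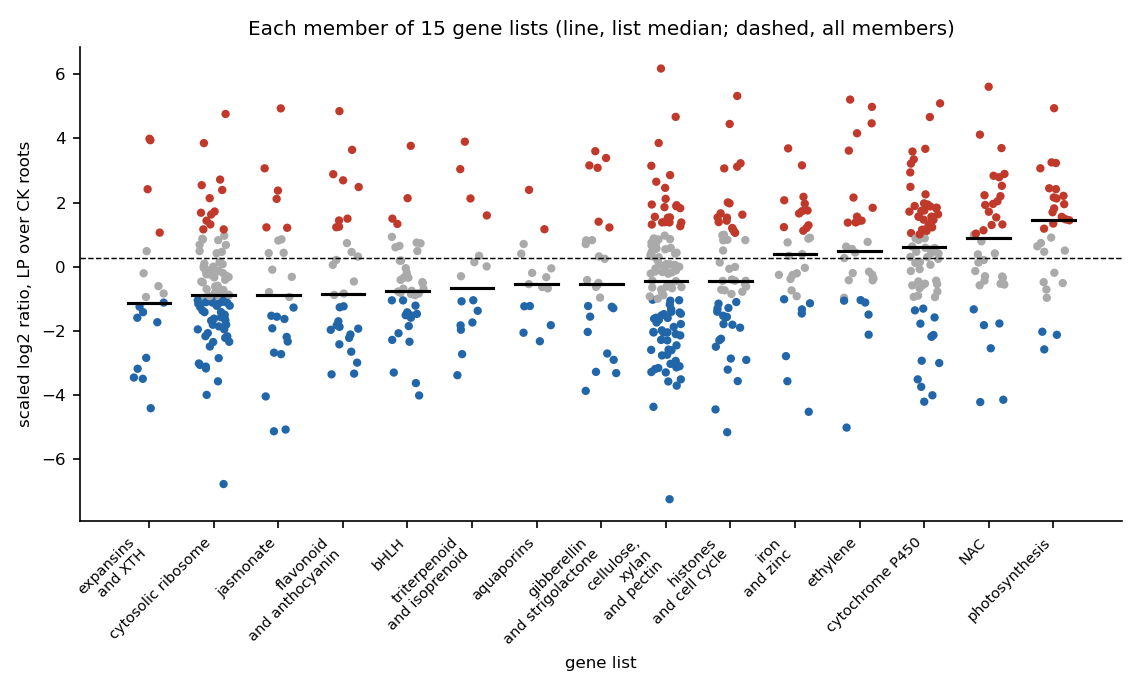
Scaled log2 ratio of LP over CK roots for each tested member of 15 gene lists, with red points called higher, blue points called lower, grey points within the size rule, short lines for list medians and a dashed line at 0.28, the median of all members. Every list spans both directions, including the ribosome list with its median of -0.87.

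Most listed photosynthesis genes were low in roots, and the list leaned to higher levels in LP. Of 31 tested, 18 were called higher (58.1%) and 3 lower, with a median of 1.45, or 1.05 over the 26 above 0 in both libraries. The median was 0.74 among contigs of 1000 bp or more and 0.62 with a match by both annotations. All members under these settings had 0.23 and 0.19. One 621 bp contig dominated the sum. It matches a rice chlorophyll a-b binding protein, OsI_012078, by Swiss-Prot and an uncharacterized walnut protein, and had 187 TPM in CK and 3698 TPM in LP. The other 30 came to 470.5 TPM with phosphate and 439.8 TPM without, against 26730 TPM in CK shoots. Plastocyanin PETE, an electron carrier, had 17.2 and 25.9 TPM in roots and a ratio of 1.19. The chlorophyll a-b binding protein LHCB2.4 (1110 bp) was lower, with 40.5 and 5.89 TPM and a ratio of -2.03. A contig matched to the cytochrome b6-f subunit petM (739 bp), which the list did not take in, had 95.5 TPM in CK and 0.3 TPM in LP. Its ratio of -6.04 was among the 12 lowest of the named genes.

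Secondary metabolism and defence lists were mixed. Cytochrome P450 enzymes had 34 of 76 higher (44.7%) and 13 lower, with a median of 0.61. Of these, 13 were listed at 0 in CK, and over the 61 above 0 in both libraries the median was 0.41. CYP711A1, an enzyme of strigolactone synthesis, had 75.1 TPM in CK and 114 TPM in LP and a ratio of 1.23. Flavonoid genes had 14 of 31 lower (45.2%) and 9 higher (29.0%), against backgrounds of 25.0% and 35.8%. Anthocyanidin reductase BAN, an enzyme of tannin synthesis, had 33.5 and 142 TPM and a ratio of 2.69, whereas chalcone synthase CHS had 50.7 and 13.2 TPM and a ratio of -1.26. Triterpenoid and isoprenoid genes had 8 of 16 lower (50.0%) and 4 higher (25.0%), against backgrounds of 25.0% and 35.8%. None of the 6 mevalonate pathway contigs was higher and 4 were lower, among them mevalonate kinase At5g27450 (954 bp) with 135 TPM in CK and 33.01 TPM in LP. Defence genes had 109 of 252 higher (43.3%) and 75 lower, with 40 listed at 0 in CK. Over the 202 above 0 in both libraries their median was -0.06, against 0.06 for all such members. The germin-like protein At1g18980 had 574 and 1121 TPM and a ratio of 1.61. Receptor kinases had 185 of 488 higher (37.9%, near the background) and 150 lower, with 80 listed at 0 in CK and a median of -0.11 over the 383 above 0 in both. FERONIA (FER, 3615 bp), a receptor of cell wall integrity, had 239.8 TPM in CK and 468 TPM in LP, a ratio of 1.60, while another FER contig (1901 bp) had 185 and 3.72 TPM. Calcium-dependent kinase CPK19 had 76.3 and 273 TPM and a ratio of 2.47. The efflux carrier DTX42 (631 bp), related to citrate exporters, had 360.1 and 34.4 TPM and a ratio of -2.72. Catalase CAT2 (1536 bp) had 282 and 493 TPM and a ratio of 1.44.

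Of the 6 most abundant members with a protein name, 5 were higher in LP roots. Abundant members in general were not higher more often than the background of 35.8%, since of 763 at a mean of 100 TPM or more 34.47% were higher and 21.49% lower. MIEL1 (3288 bp), an E3 ubiquitin ligase, had 352 TPM in CK and 3946 TPM in LP, a 17.4-fold higher scaled level. U2B'', a splicing protein, had 770 and 2684 TPM and a ratio of 2.44. SP1L1 (1095 bp), a microtubule protein, had 752 and 1985 TPM and a ratio of 2.04. The small heat shock protein HSP21.7 had 438 and 1474 TPM and a ratio of 2.39. The 10 most abundant members of each library held 7.03% of the TPM of tested members in LP and 2.72% in CK.

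At the extremes, ratios passed 6 in both directions. A 1247 bp contig matched to the Candida proton pump PMA1 and to a walnut pentatricopeptide protein had 1.05 TPM in CK and 259 TPM in LP, a ratio of 7.63. An uncharacterized walnut match had the only higher ratio among members above 0 in both libraries. BAM3 (1924 bp), a plastid starch-degrading amylase, had 0.590 and 102 TPM and a ratio of 6.66. A 688 bp contig matched to BRUTUS (BTS), a ligase that restrains the iron response, and to an uncharacterized walnut protein had 0.390 and 81.0 TPM and a ratio of 6.52. These 3 contigs were near 0 in CK, but a 968 bp BTS contig had 68.7 TPM there and a ratio of 0.83. On the other side, the wall-associated kinase WAKL1 had 213 TPM in CK and 0.610 TPM in LP, a ratio of -6.78. ABCB26 (1308 bp), a transporter, had 107 and 0.02 TPM and a ratio of -6.72, although a longer ABCB26 contig (2371 bp) had a ratio of 0.46. EDS1B, a defence regulator, IRX15, a xylan protein, and DCL4 (1079 bp), a small RNA enzyme, had ratios of -6.62, -6.48 and -6.33, while a longer DCL4 contig (1589 bp) had 1.29. Some members were listed at 0 in one library. Homocysteine methyltransferase HMT3 (1368 bp), whose walnut match is a pentatricopeptide protein, was listed at 0 in CK and had 65.9 TPM in LP. The kinase PIX7 (1020 bp) had 62.9 TPM with phosphate and was at 0 without it, and other PIX7 contigs were above 0 in LP. In all, 1741 tested members were listed at 0 in CK and 386 in LP, and without these 3555 members were called higher and 3317 lower.

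Genes often used as references differed too. These 19 contigs for actin, tubulin, ubiquitin, GAPDH, PP2A and elongation factor were chosen after values had been seen. Of them 8 were lower and 2 higher, against backgrounds of 25.0% and 35.8%, with a median of -0.96. ACT7 (686 bp) had 397 TPM in CK and 39.4 TPM in LP. GAPC1 had 216 and 30.1 TPM. PP2AA3 had 81.0 and 62.1 TPM, a ratio of 0.26.

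Root and shoot differences were compared gene by gene. Across 14645 members tested in both tissues, the ratios of LP to CK in roots and in shoots had a Spearman coefficient of 0.16 and a Pearson coefficient of 0.15, given as a description across genes, which are not independent replicates. Of 5209 members called higher in roots, 20.8% were higher and 10.98% lower in shoots, against 14.95% and 11.45% of all. Of 3662 called lower in roots, 17.7% were lower and 12.6% higher in shoots. PHT1-4, PHT1-3 and PHT1-1, all lower in LP roots, were called higher in LP shoots, with 19.3 and 52.4 TPM, 17.8 and 88.9 TPM, and 8.07 and 60.1 TPM in CK and LP shoots. NRT3.1 likewise had 129 TPM in CK shoots and 380 TPM in LP shoots. SQD2 and MGD2 were called higher in both tissues, with shoot ratios of 1.36 and 1.48. These contrasts between tissues have no test, because each tissue has 1 library per medium.

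Contig length and depth bounded what could be read. In members under 500 bp, 62.6% of 5347 tested were called higher and 30.6% lower, and 53.0% were listed at 0 in CK. In contigs of 2000 bp or more, 30.7% were higher and 18.1% lower. Just inside the length limit, from 500 to 549 bp, 338 of 670 were higher and 208 lower, and just outside it, from 450 to 499 bp, 377 of 702 were higher and 226 lower. Among 975 pairs of contigs with the same best match, the root ratios differed by a median of 1.47 on the log2 scale, and of 297 pairs with both contigs called 56.9% had the same direction. The same share in shoots was 76.0%. A level of 10 TPM in a 1000 bp contig stood on about 293 fragments in CK roots and 459 in LP roots, counting errors of 5.84% and 4.67%.

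**Figure D5:**
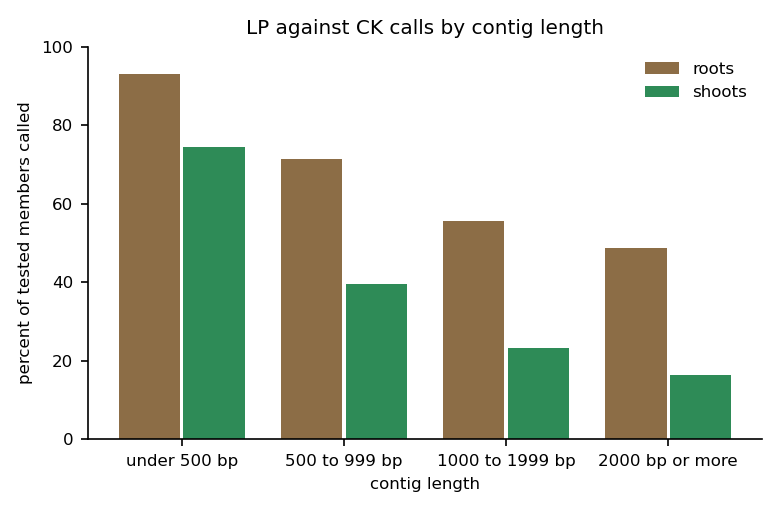
Percent of tested members called higher or lower in LP against CK, in roots (brown) and shoots (green), by contig length class. Roots are above shoots in every class, and in both tissues the percent called is lower in longer contigs, from 93.2% to 48.8% in roots.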

How the data were processed

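The deposited values are TPM for each assembled gene in 4 libraries, with contig length and protein matches, per the file headers. The submitters' processing notes name cutadapt 1.9 and FastQC; which assembler and quantifier were used is not given there. Poly(A) RNA was sequenced as pairs with 300 bp inserts, per the labels' protocols. TPM keep no depth, but values of single-transcript contigs of 400 to 700 bp were whole multiples of a step within 0.0065 TPM for 97.3% (CK roots) and 98.7% (LP roots) of values, against 13.3% and 23.6% by chance. That window was set after seeing the data, and the steps give counting error only. By these steps 3 fragments at 1000 bp came to 0.102 TPM in the CK and 0.0654 TPM in the LP root library.

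LP values were scaled by the median ratio, the pseudocount was 1 TPM, and members needed 1 TPM in a scaled value. Python 3.11.15, pandas 2.3.3, numpy 2.4.6 and matplotlib 3.10.9 were used, and the calling code was tested on simulated data. Alternatives were other scalings, pseudocounts, filters, lengths, thresholds and match rules. Members and lists were chosen with earlier results of these data known. Of 43 lists, those for GRAS factors, ABC and MATE carriers, glycosyltransferases, cytochrome P450 and isoprenoids were added, and name patterns tightened, after list counts had been seen. Lists match protein names and can overlap.

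The rule for named genes left out proteins called uncharacterized, unknown or hypothetical and took the 12 highest and 12 lowest ratios of members above 0 in both libraries and at 20 TPM or more, the most abundant member called each way in each list, the 4 most abundant of each phosphate list, the 5 most abundant listed at 0 each way in contigs of 1000 bp or more, and the 6 most abundant. Other named genes, and the families counted within lists, were chosen after their values were seen, from the most abundant members or as known parts of the pathway. Contig sequences were not used here.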

Additional observations from a re-analysis of the deposited data

Results flagged for a closer look

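Of the contigs printed in the text or taken by the naming rule, 25 were called in opposite directions in roots and shoots, 15 of them taken by the rule and 10 printed beside it. Opposite calls were common among all members tested in both tissues. Of 5209 called higher in roots, 572 (10.98%) were lower in shoots, and of 3662 called lower in roots, 460 (12.6%) were higher in shoots. With 1 library per tissue and medium, the difference between the tissues was not tested. The values below are the root minus the shoot log2 ratio of LP over CK. Lower in LP roots and higher in LP shoots were the phosphate importer PHT1-4 (-3.85), its relatives PHT1-3 (-3.52) and PHT1-1 (-5.10), the phosphatase PAP28 (-7.33), DGD1 of 574 bp (-3.71), SIZ1 of 1689 bp (-4.58), WRKY6 of 1218 bp (-2.51), the carriers NPF4.3 (-4.25) and NPF7.3 of 947 bp (-3.17), NAC100 of 615 bp (-5.53), the regulator PHR2 (-2.15), the nitrate transport partner NRT3.1 (-3.52), the kinases WAKL1 (-8.06) and At2g19130 (-2.76), the transporter ABCB26 (-8.18), CYP89A9 of 1476 bp (-4.20), the chaperone HSP70-8 (-2.77), the disease resistance protein RPP5-like (-2.83) and the proteinase APA1 of 1146 bp (-2.60). Higher in LP roots and lower in LP shoots were the kinesin KIN1 (7.67), beta-amyrin synthase OSCBPY (9.20), the aquaporin NIP1-1 (3.72), the laccase LAC14 (3.62), GAUT4 of 773 bp (7.23) and OsI_012078 (5.96). OSCBPY makes a triterpenoid backbone and had 0 and 8.91 TPM in CK and LP roots, against 63.6 and 0.64 TPM in shoots. Outside the members, genes matched to yeast and to no plant held 2.07% of TPM in LP roots and 0.789% in CK roots, and 1.23% and 0.332% in LP and CK shoots.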

How the results depend on the processing

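No paired analysis was possible because each group is 1 library, and no library could be left out. Without rescaling the median ratio of all members moved by -0.62, and 23 of 26 lists with a median above 0 turned negative, among them phosphate regulators (-0.36), MYB (-0.23) and cytochrome P450 (-0.0262). Set against the median of all members under the same setting, 23 of 43 lists kept their side in all 6 settings run for lists, 7 above and 16 below. Flavonoid genes did not when a match by both annotations was asked for, with a median of 1.95 over only 4 members. Nitrogen genes kept their side in 2 of the 6 settings. Receptor kinases, and AP2 and ERF factors, kept theirs in 1 each. Counts of calls moved most with all lengths (8642 higher), contigs of 1000 bp or more (2807 higher, 2017 lower), a log2 threshold of 2 (2815, 1803), contigs summed over protein name (3428, 2465) and a match by both annotations (2311, 1782). For these the alternative tests other genes or asks a larger ratio. Of values for genes taken by the naming rule, 630 kept their call, 37 lost it, 1 gained it and 2 called values turned direction when contigs were summed over protein name, MYB44 of 836 bp (1.23) and APA1 of 1146 bp (0.47). Of the 630, 5 values within the size rule changed sign, for PAP18, AL1, PHL1 and SIZ1, without rescaling or when summed. Depth was read as counting error only, and the spread between replicates was not measured.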
